A study of Mus musculus with 3 samples.

Results

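The 42 genes described here mark passage through the cell cycle: 18 work in DNA replication and 24 in mitosis. They were taken by symbol from the gene lists of 2 single-cell libraries, and all 42 were found among the 55357 genes listed. The libraries came from tumours grown in female mice, 8 to 10 weeks old, from 4T1, an established mouse mammary carcinoma line. In the library called sgVC the injected cells were labelled wild type (4T1-sgVC), and in the library called sgCPT1A they were labelled as a CPT1A knockdown (4T1-sgCPT1A). CPT1A is the enzyme that commits long-chain fatty acids to mitochondrial oxidation. The labels place the change in the injected line and name none in the host mice, whose strain they do not give. They call the tumours xenografts. The tumour-bearing mice were housed for 8 days, all cells of the dissociated tumour entered the libraries, and no sort is described. How many mice gave each library was not stated. For another sgCPT1A sample listed, no separate library was analysed. With 1 library per group no test between the groups was possible, and all intervals printed below are 95% intervals that cover counting error only.

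A cell that commits to division first loads the MCM helicase onto origins of replication, then copies its DNA with the help of PCNA and a supply of deoxynucleotides. Cyclin A and cyclin B with the kinase CDK1 then drive it into mitosis, where kinetochores, spindle motors and the anaphase-promoting complex separate the chromosomes. Replication transcripts are known to peak around S phase under E2F factors, and mitosis transcripts in G2 and M phase through the DREAM and MuvB complexes, which bind an element called CHR. Tumour cells and activated lymphocytes are known to divide, whereas mature neutrophils do not.

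The 2 groups of genes also differed in the letters before their start sites. RefSeq promoters on GRCm38.p6, 250 bases before to 50 after the start, were matched for 34 of the 42 members (15 of 18 replication and 19 of 24 mitosis members). The members without an entry were Gins2, Mcm4, Exo1, Kif20a, Stmn1, Tpx2, Ccna2 and Aurkb. The core of the CHR element, TTTGAA on either strand, stood in 14 of 19 mitosis promoters and in 2 of 15 replication promoters (Mcm2 and Cdc45). By the same search 20.2% of the 27025 genes with a promoter held it. An E2F-type match (TTCCCGCC, TTTCCCGC, TTTGGCGC or TTTCGCGC on either strand; these overlap each other in part) stood in 7 of 15 replication promoters, those of Cdc6, Mcm3, Mcm5, Mcm6, Mcm7, Rrm1 and Uhrf1. Among mitosis members Cdk1 alone had one, and 4% of all genes did. The CCAAT box, on either strand, was found in 16 of 19 mitosis and 11 of 15 replication promoters, against 41.1% of all genes. A match is a run of letters and not a measured binding site. The 6 stretches that follow give the 150 bases before the start, 5′ to 3′ on the strand of the gene, with E2F-type and CHR letters in capitals. They are shown because 3 carry the E2F type alone (Mcm6, Rrm1, Uhrf1), 2 carry CHR alone (Cdc20, Ube2c) and Cdk1 carries both.
Mcm6, chr1:128359706-128359855, minus strand: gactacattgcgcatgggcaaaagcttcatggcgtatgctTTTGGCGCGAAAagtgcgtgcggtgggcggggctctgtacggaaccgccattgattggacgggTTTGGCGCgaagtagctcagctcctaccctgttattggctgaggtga
Rrm1, chr7:102441545-102441694, plus strand: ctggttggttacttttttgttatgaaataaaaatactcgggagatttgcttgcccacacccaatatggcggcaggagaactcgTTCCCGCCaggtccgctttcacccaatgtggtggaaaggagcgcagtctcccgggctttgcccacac
Uhrf1, the first of 2 listed starts, chr17:56303187-56303336, plus strand: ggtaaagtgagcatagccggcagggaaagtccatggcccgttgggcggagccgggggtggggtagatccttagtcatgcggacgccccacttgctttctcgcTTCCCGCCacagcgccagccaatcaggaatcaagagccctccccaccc
Cdk1, chr10:69352913-69353062, minus strand: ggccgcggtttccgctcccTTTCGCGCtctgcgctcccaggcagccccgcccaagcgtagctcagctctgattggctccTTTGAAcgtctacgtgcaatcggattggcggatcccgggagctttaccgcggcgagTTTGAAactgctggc
Cdc20, chr4:118437344-118437493, minus strand: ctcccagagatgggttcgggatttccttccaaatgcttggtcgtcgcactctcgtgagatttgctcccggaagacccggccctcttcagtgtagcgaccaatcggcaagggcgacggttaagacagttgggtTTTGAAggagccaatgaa
Ube2c, chr2:164769779-164769928, plus strand: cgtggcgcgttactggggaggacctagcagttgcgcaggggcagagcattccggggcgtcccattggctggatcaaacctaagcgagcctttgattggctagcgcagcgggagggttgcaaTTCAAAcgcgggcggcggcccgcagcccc

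The sgVC library held 9890 barcodes with 155948212 unique molecular identifiers (UMIs) and the sgCPT1A library 7198 barcodes with 35557125 UMIs. The median barcode had 10809 UMIs in sgVC and 2786 in sgCPT1A. The libraries shared 18 barcode sequences. Cells were grouped without the members, without 72 other cell cycle genes and without histone genes, and each group was named from markers such as Krt8 and Wfdc2 (tumour), Col1a1 and Dcn (fibroblast) or Cd3e and Trac (T). Tumour-like cells made up 4458 of 9319 sgVC cells and 11 of 6743 sgCPT1A cells, so division of tumour cells could be described in sgVC only. Neutrophil-like cells were 1795 and 5129, monocyte/macrophage-like cells 1380 and 299, T-like cells 855 and 549, fibroblast-like cells 400 and 513, dendritic-like cells 219 and 65, NK-like cells 83 and 31, and pericyte- or smooth muscle-like cells 51 and 73, in sgVC and sgCPT1A. Cpt1a, the targeted gene, was read at 17.3 CPM (UMI counts scaled to a common total for all classes) in tumour-like cells of sgVC (2104 UMIs), and the 11 tumour-like cells of sgCPT1A gave 1 UMI, too few to check the label.

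Each cell was thinned to 1000 UMIs so that shares could be compared across depths. A cell was called mitosis-positive with at least 2 UMIs over 22 mitosis members, leaving out Stmn1 and Hmgb2, which are also expressed outside division. Replication-positive cells had at least 2 UMIs over the 18 replication members. In sgVC, 41.4% (39.98 to 42.9%) of 4414 tumour-like cells were mitosis-positive, and 29.1% (27.7 to 30.4%) were replication-positive. Neutrophil-like cells, measured the same way as a reference, gave 0.683% and 2.53% of 1464 cells in sgVC, and 0.793% and 2.59% of 4668 cells in sgCPT1A. This reference is not a technical background. Pcna gave 492 of their 611 replication UMIs in sgVC and 2337 of 2542 in sgCPT1A, and Mki67 gave 443 of 724 mitosis UMIs in sgCPT1A. Before thinning, the mitosis-positive share was 80.7% in tumour-like cells (median 23632 UMIs per cell) and 1.56% in sgVC neutrophil-like cells (median 1460 UMIs). The 6 host classes with at least 50 cells in sgVC other than neutrophil-like cells lay between these levels.

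**Figure D1:**
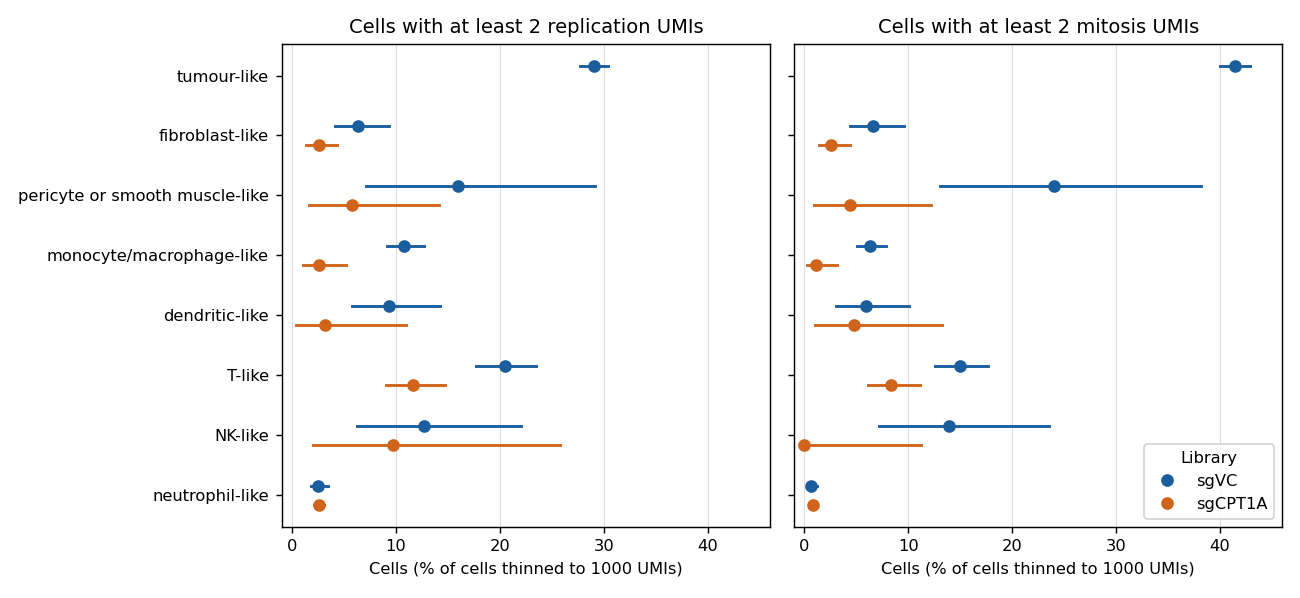
Share of replication-positive (left) and mitosis-positive (right) cells, in percent of cells thinned to 1000 UMIs, by cell class and library; points are shares and lines exact 95% binomial intervals. Tumour-like cells of sgVC stand highest at 29.1% and 41.4%, and neutrophil-like cells of both libraries lie between 0.683% and 2.59%.

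Mitosis-positive shares of host classes were lower in sgCPT1A than in sgVC, apart from neutrophil-like cells, with intervals apart in T-like, monocyte/macrophage-like, pericyte- or smooth muscle-like and, barely, fibroblast-like cells. T-like cells, the lymphocyte class, were mitosis-positive at 15% (12.6 to 17.7%, 780 cells) in sgVC and 8.35% (6.11 to 11.1%, 515 cells) in sgCPT1A. The replication-positive shares of T-like cells were 20.5% (17.7 to 23.5%) and 11.7% (9.01 to 14.7%). The intervals of the libraries did not overlap for either measure. Without thinning the order of the replication-positive shares turned, to 43.5% and 49.2%, at medians of 2873 and 4918 UMIs per cell. Monocyte/macrophage-like cells were mitosis-positive at 6.33% (5.04 to 7.83%, 1248 cells) in sgVC and 1.09% (0.226 to 3.17%, 274 cells) in sgCPT1A, and replication-positive at 10.8% and 2.55%. Here too the intervals lay apart, and the sgCPT1A value rested on 3 mitosis-positive cells. Both thinned sgCPT1A shares were near those of neutrophil-like cells in that library, 0.793% and 2.59%. The summed mitosis members were not, at 174 CPM in monocyte/macrophage-like and 52.7 CPM in neutrophil-like cells of sgCPT1A. In cells without a tumour marker UMI these sums were 71.1 and 51.6 CPM.

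Among stromal cells, fibroblast-like cells were mitosis-positive at 6.65% (4.39 to 9.59%, 391 cells) in sgVC and 2.57% (1.38 to 4.36%, 505 cells) in sgCPT1A. Pericyte- or smooth muscle-like cells were mitosis-positive at 24% (13.1 to 38.2%, 50 cells) and 4.35% (0.906 to 12.2%, 69 cells). The fibroblast intervals all but touched, and those of the pericyte class did not overlap. Dendritic-like cells gave 5.91% (3.09 to 10.1%, 203 cells) and 4.76% (0.993 to 13.3%, 63 cells), a difference well inside the counting error. NK-like cells were mitosis-positive at 13.9% (7.16 to 23.5%, 11 of 79 cells) in sgVC and 0% (0 to 11.2%, 0 of 31 cells) in sgCPT1A, so the intervals overlapped. Thinning left out cells under 1000 UMIs, 75 and 34 T-like, 132 and 25 monocyte/macrophage-like and 9 and 8 fibroblast-like cells in sgVC and sgCPT1A.

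The balance between the phases differed between classes. Of all UMIs of both lists, mitosis members gave 74.4% in tumour-like cells of sgVC (74.3 to 74.5%), the highest share of any class with 50 cells. Pericyte- or smooth muscle-like cells followed with 68.9%, NK-like with 60.9%, fibroblast-like with 59.9%, T-like with 57.9%, dendritic-like with 48.8% and monocyte/macrophage-like with 42.96%. In monocyte/macrophage-like cells Pcna gave 2130 of 6066 replication UMIs, and the mitosis share was 53.7% without that gene. With Pcna, among cells with at least 500 genes, the share was 51.02%. Per thinned cell, 8.33% of monocyte/macrophage-like cells were replication-positive only, 2.48% positive for both lists and 3.85% mitosis-positive only. In tumour-like cells the same shares were 10.01%, 19.1% and 22.4%, and 48.6% were positive for neither. At this depth and limit mitosis only thus exceeded replication only, an order that depends on both settings. With a limit of 1 UMI, 54.6% of tumour-like cells were replication-positive and 53.4% mitosis-positive. Thinned to 2000 UMIs the shares were 48.8% and 48.9%, and without thinning 94.1% and 80.7%.

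In sgCPT1A the mitosis share of these UMIs, with all members counted, was lower in each class with at least 50 cells per library. It was 60.3% in pericyte- or smooth muscle-like, 49.01% in fibroblast-like, 47.4% in T-like, 38.3% in monocyte/macrophage-like and 31.9% in dendritic-like cells. The intervals of the libraries did not overlap in any of these 5 classes. They treat each UMI as a separate draw and leave out the spread between cells. In sgCPT1A monocyte/macrophage-like cells, for example, 53 Ube2c UMIs came from 1.34% of 299 cells. Without Pcna the direction turned in monocyte/macrophage-like cells, to 53.7% in sgVC and 63.2% in sgCPT1A, and was kept in the other 4. In neutrophil-like cells, where Pcna gave 492 of 611 replication UMIs in sgVC and Mki67 443 of 724 mitosis UMIs in sgCPT1A, the share was 35.4% in sgVC and 22.2% in sgCPT1A. It was 33.6% and 9.95% without Mki67, and 73.8% and 77.9% without Pcna, where the order turned. Per thinned cell the 5 classes had no common direction. Of fibroblast-like cells positive for either list, 55.3% of 47 in sgVC and 61.9% of 21 in sgCPT1A were mitosis-positive. Dendritic-like cells gave 46.2% of 26 and 75% of 4, and T-like cells 55.7% of 210 and 52.4% of 82. Monocyte/macrophage-like cells gave 43.2% of 183 and 30% of 10, and pericyte- or smooth muscle-like cells 70.6% of 17 and 42.9% of 7.

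Tumour marker UMIs were read in host cells of both libraries as well, and those values stand beside the shares. The 5 tumour markers (Krt8, Krt18, Wfdc2, Spint1 and Spint2) summed to 3897 CPM in tumour-like cells of sgVC. In host classes of sgVC and sgCPT1A they summed to 575 and 24.98 CPM in pericyte- or smooth muscle-like, 316 and 146 CPM in dendritic-like, 209.5 and 10.8 CPM in fibroblast-like cells. T-like cells had 156 and 69.8 CPM, neutrophil-like cells 99.2 and 17.7 CPM, and monocyte/macrophage-like cells 79.8 and 8.38 CPM. The host level was thus higher in sgVC in each of these classes. In sgCPT1A, with 11 tumour-like cells, 50.8% of dendritic-like and 28.2% of T-like cells still held a marker UMI. How much of the marker RNA came from tumour cells and how much from the host cells themselves was not tested. Cells without a marker UMI are also not known to be free of tumour RNA. For each tumour marker UMI, tumour-like cells held 1.06 mitosis UMIs. Within sgVC the same ratio was 1.21 in neutrophil-like, 1.56 in dendritic-like, 3.37 in fibroblast-like, 3.86 in pericyte- or smooth muscle-like, 6.08 in monocyte/macrophage-like and 12.02 in T-like cells. The part of tumour RNA in the mitosis UMIs of these classes was not tested.

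Positive cells (either list) were set against cells positive for neither. In fibroblast-like cells of sgVC the tumour markers were at 684 CPM in positive and 111 CPM in other cells, and in pericyte- or smooth muscle-like cells at 842 and 207 CPM. Monocyte/macrophage-like cells had the reverse, 46.2 and 86.9 CPM, and T-like cells 179 and 138 CPM. In cells without any tumour marker UMI, the mitosis-positive shares of sgVC and sgCPT1A were 5.42% (3.13 to 8.66%) and 2.56% (1.33 to 4.43%) for fibroblast-like cells. For monocyte/macrophage-like cells they were 5.31% (3.96 to 6.94%) and 0.766% (0.0929 to 2.74%), and for T-like cells 9.24% (6.82 to 12.2%) and 6.93% (4.53 to 10.1%). For pericyte- or smooth muscle-like cells they were 20.7% of 29 and 3.704% of 54 cells. The order of these mitosis-positive shares was kept in these 4 classes, but the intervals stayed apart in monocyte/macrophage-like cells only and overlapped in the other 3. Replication-positive shares were 9.55% (7.75 to 11.6%) and 2.68% (1.08 to 5.45%) in monocyte/macrophage-like cells, with intervals apart. In T-like cells they were 16.4% (13.25 to 20.0%) and 9.7% (6.85 to 13.23%), barely apart. Their intervals overlapped in fibroblast-like and pericyte- or smooth muscle-like cells. For T-like cells the mitosis share of list UMIs became 50.7% and 51.6%, so there the order turned. The same share was 38.8% and 20.3% in monocyte/macrophage-like, 37.9% and 20% in dendritic-like, 55.1% and 49.8% in fibroblast-like and 69.1% and 41.5% in pericyte- or smooth muscle-like cells, lower in sgCPT1A in each. T-like cells without a tumour marker UMI were also shallower: in sgVC the median was 2438 UMIs, against 4271 in the 35.1% of T-like cells that held a tumour marker UMI. The part of tumour RNA and of depth in the T-like balance was not tested.

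T-like cells comprised 3 clusters, numbered 7, 11 and 13. Cluster 7, with Cd4 and Icos, held most of them (551 cells in sgVC and 444 in sgCPT1A). It was replication-positive at 19.4% in sgVC and 8.21% in sgCPT1A, and mitosis-positive at 15.1% (11.99 to 18.5%) and 7.25% (4.94 to 10.2%). Both pairs of intervals lay apart. Cluster 11, with Cd8a, Cd8b1 and Gzmb, genes of cytotoxic T cells, was replication-positive at 19.9% of 206 and 25% of 68 cells, and mitosis-positive at 13.6% and 7.35%. Cluster 13, with Foxp3 and Ctla4, genes of regulatory T cells, was replication-positive at 28.1% of 89 and 27.3% of 33 cells, and mitosis-positive at 17.98% and 24.2%. In clusters 11 and 13 the intervals of the libraries overlapped for both measures. Whether the difference between the libraries varied from cluster to cluster was not tested.

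Clusters of the other classes differed as well. A fibroblast-like cluster led by Postn, which encodes a matrix protein, held 16 sgVC and 76 sgCPT1A cells, and none of the 76 was positive for either list. With 3 cells taken as the limit of a count of 0 the share would be 3.95%, which is not an exact interval. Without that cluster, the fibroblast-like cells of cluster 8 were mitosis-positive at 6.93% in sgVC and 3.03% in sgCPT1A, with intervals of 4.58 to 9.99% and 1.62 to 5.13% that overlapped. Dendritic-like cells with Xcr1 and Clec9a were replication-positive at 13.4% in sgVC, and those with Ccr7 and Fscn1, genes of migrating dendritic cells, at 2.63%.

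The 3 tumour-like clusters of sgVC differed in the members. Only 128 cell cycle and histone genes, the members among them, were barred from the grouping. Other genes that vary with division could still shape it, so the split is not independent of the cell cycle. Cluster 1 (1935 cells, median 33660 UMIs) was mitosis-positive at 78.7% (76.8 to 80.5%) and replication-positive at 49.3%. Cluster 0 (2079 cells, median 20027 UMIs) gave 10.7% and 13.3%, and cluster 10 (444 cells, median 11192 UMIs) 21.2% and 13.6%. Cluster 1 was the deepest of the 3, and all shares were taken after thinning.

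The depth of tumour-like cells allowed thinning to 5000 UMIs, which kept 4244 of them. With a limit of 6 UMIs per list, 45.1% had neither list, 9.14% replication only, 29.5% both and 16.3% mitosis only. These are ranges of a continuous measure and not cell types, since 28.3% of cells lay within 2 UMIs of a limit. Before thinning, the median cell held 18468, 25888, 34884 and 30332 UMIs in the 4 ranges. For each member the ranges were set without that member, and the values below are in the order neither, replication only, both, mitosis only. Because the lists define the ranges, the levels are a description.

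**Figure D2:**
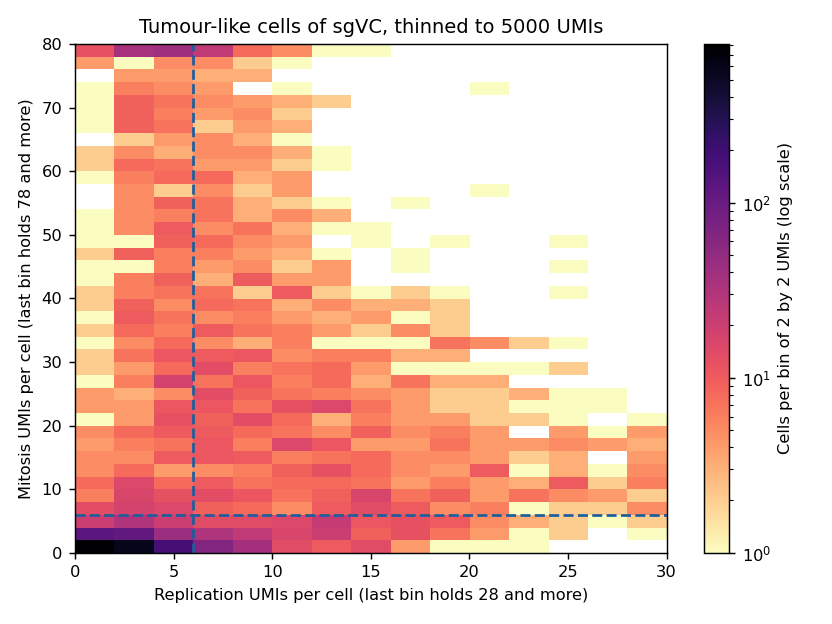
Tumour-like cells of sgVC thinned to 5000 UMIs, by replication UMIs (x axis) and mitosis UMIs (y axis) per cell; colour gives cells per bin of 2 by 2 UMIs on a log scale and dashed lines mark 6 UMIs. The densest bins lie at the lower left, and cells spread along the bottom (replication only, 9.14%), across the upper right (both, 29.5%) and up the left side (mitosis only, 16.3%).

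Helicase genes were high in cells with replication only. Mcm6, a subunit of the MCM helicase, was at 20.4, 161, 109 and 30.3 CPM in the 4 ranges. Mcm2 was at 13.7, 118, 74.98 and 31.5 CPM, and Mcm3, Mcm4 and Mcm5 of the same ring were also highest with replication only. So was Gins2, of the GINS complex that completes the active helicase, at 16.7, 97.6, 63.6 and 33.8 CPM. Ung, the glycosylase that removes uracil from DNA, had the lowest ratio of mitosis only over replication only (log2 ratio -4.56), at 4.27, 47.6, 20.8 and 2.03 CPM. These were the 7 of 18 replication members highest in that range.

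The other 11 replication members were highest in cells with both lists. Among them were all 5 genes of nucleotide supply. Rrm2, the regulated subunit of ribonucleotide reductase, was at 4.89, 83.2, 227.04 and 74.2 CPM, and Tyms, thymidylate synthase, at 15.9, 80.95, 172 and 64.99 CPM. Tk1, thymidine kinase, and Rrm1 were higher with mitosis only than with replication only, by 0.40 and 0.33 on the log2 scale. Cdc6, which loads the helicase, was low both with neither list and with mitosis only, at 1.25, 30.5, 33.97 and 3.17 CPM. Cdc45, which joins the helicase when it fires, was at 3.76, 30.1, 73.9 and 26.7 CPM, and Pcna, the sliding clamp, at 107, 387, 444 and 158 CPM. Uhrf1 was at 7.18, 89.2, 102 and 45.4 CPM and Exo1, a repair exonuclease, at 1.25, 21.2, 28.1 and 8.32 CPM. These members had their lowest levels with neither list. Mcm7, the remaining subunit of the helicase ring, was at 41.3, 162, 169 and 75.3 CPM, and Dtymk, thymidylate kinase, at 113, 318, 377 and 208 CPM. Over the 18 replication members the median log2 ratio of mitosis only over replication only was -1.32.

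**Figure D3:**
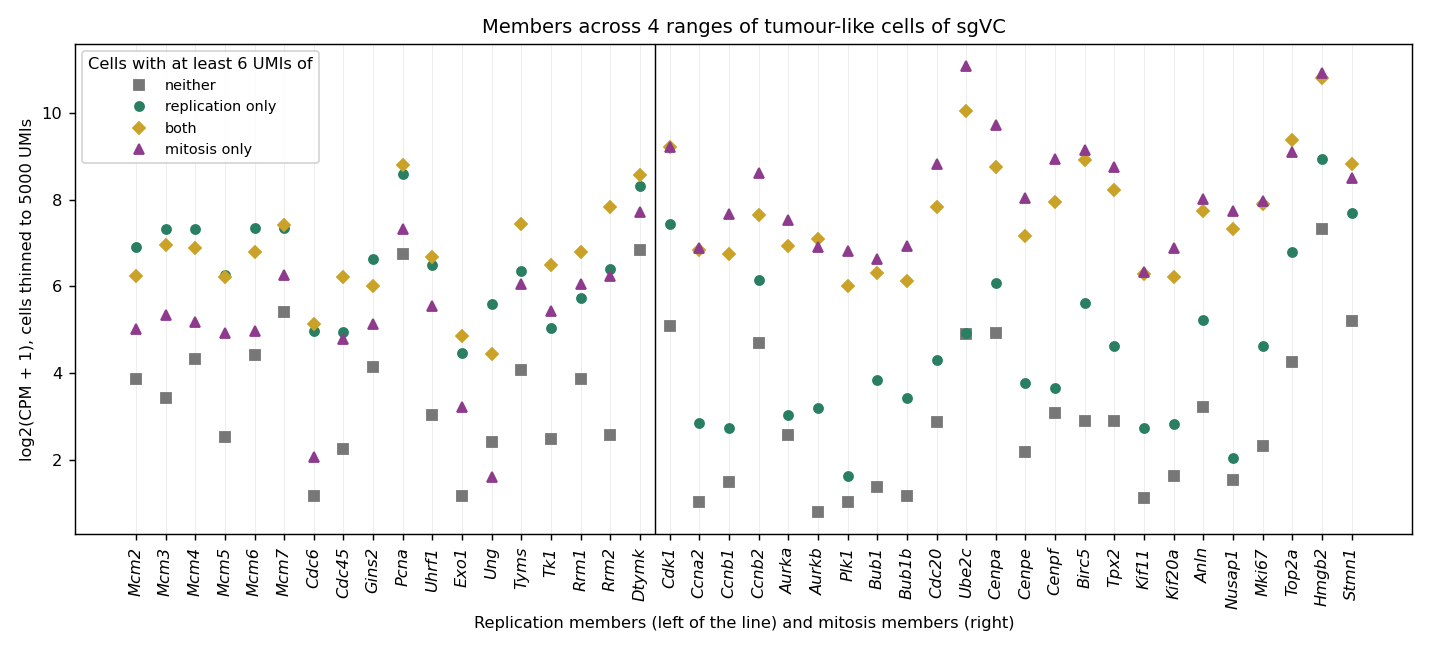
Level of each member, log2(CPM + 1), in 4 ranges of tumour-like sgVC cells thinned to 5000 UMIs (square, neither; circle, replication only; diamond, both; triangle, mitosis only); the line separates replication members (left) from mitosis members (right). Of 18 replication members 7 peak with replication only and 11 with both, and of 24 mitosis members 20 peak with mitosis only.

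Mitosis members spread further, with a median log2 ratio of 3.86 over all 24. Ube2c, the ubiquitin-conjugating enzyme of the anaphase-promoting complex, was at 28.6, 29.6, 1068 and 2168 CPM, the highest log2 ratio of all members (6.20). Cdc20, which activates that complex, was at 6.36, 18.7, 227.47 and 454 CPM. Nusap1, a spindle protein, was at 1.88, 3.09, 159 and 215 CPM. Each of these was low in both ranges of few mitosis UMIs and highest with mitosis only. The same held for the kinase Plk1, at 1.04, 2.06, 63.4 and 112 CPM, for cyclin B1 (Ccnb1), at 1.78, 5.64, 106 and 203 CPM, and for the kinetochore protein Cenpf, at 7.39, 11.7, 248 and 493 CPM.

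Checkpoint and centromere genes had the same order. Bub1 and Bub1b, kinases of the spindle checkpoint, were at 1.57, 13.3, 77.9 and 97.7 CPM and at 1.25, 9.69, 68.9 and 122 CPM. Cenpa, the histone variant of centromeres, was at 29.4, 66.5, 428 and 842 CPM, and Cenpe, a kinetochore motor, at 3.54, 12.7, 142 and 263 CPM. Among spindle genes, Tpx2, which activates Aurora A, was at 6.47, 23.6, 298 and 435 CPM, and the midzone motor Kif20a at 2.08, 6.12, 73.1 and 118 CPM. All of these were highest with mitosis only, as were Aurka, at 4.91, 7.198, 122 and 185 CPM, Birc5, survivin, at 6.44, 48.1, 482 and 569 CPM, and Ccnb2, cyclin B2, at 25.04, 69.6, 199 and 393 CPM.

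A smaller group had similar levels with both lists and with mitosis only. Cdk1, the kinase that cyclins A and B activate, was at 32.9, 171, 595 and 591 CPM. Ccna2, cyclin A2, which acts from S phase on, was at 1.04, 6.17, 114 and 118 CPM, and the spindle motor Kif11 at 1.15, 5.61, 76.9 and 80.1 CPM. Top2a, the topoisomerase that untangles chromosomes, was at 18.02, 111, 668 and 549 CPM, and Aurkb, kinase of the chromosomal passenger complex, at 0.731, 8.14, 135 and 119.7 CPM. With Cdk1 and Stmn1, which destabilises microtubules, these 2 were the mitosis members highest with both lists. Mki67, a coat protein of mitotic chromosomes used as a proliferation marker, was at 3.96, 23.5, 240.2 and 252 CPM. Stmn1 had the lowest log2 ratio of the mitosis members (0.80), and Hmgb2, a chromatin protein, was at 158, 489.7, 1807 and 1934 CPM.

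Cell cycle genes outside the 42 gave the following levels in these ranges. E2f1, the S phase factor, was at 15.05, 80.4, 48.6 and 13.9 CPM, and Foxm1, a factor of G2 genes, at 2.299, 13.4, 64.2 and 60 CPM. E2f1 was thus high with replication only and Foxm1 in both ranges with mitosis UMIs. Gmnn, geminin, which blocks repeated licensing, was at 15.8, 113, 156 and 76.5 CPM. Pttg1, securin, was at 16.9, 35.1, 236 and 498 CPM and the CDK subunit Cks2 at 102, 149, 464 and 640 CPM. Cyclin D1 (Ccnd1) was present in all ranges, at 1104, 2021, 1698 and 1565 CPM, as were Cdk4, at 473, 602, 672 and 503 CPM, and Myc, at 302, 344, 319.6 and 306 CPM. Of the CDK inhibitors, Cdkn2c was highest with neither list, at 333, 234, 254 and 245 CPM, and Cdkn2d with mitosis only, at 27.8, 19.6, 95.05 and 109 CPM. In all tumour-like cells Cdkn2a gave 1 UMI, and Cdkn2b and Cdkn1c 2 UMIs each; these 3 are named after their values were seen.

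Across classes of sgVC, the order of the levels differed between members. Mki67 was at 207 CPM in T-like, 142 in tumour-like, 84.1 in pericyte- or smooth muscle-like, 54.2 in dendritic-like, 50.9 in monocyte/macrophage-like, 32.1 in fibroblast-like and 9.35 CPM in neutrophil-like cells. Mcm2 likewise was higher in T-like (70.1 CPM) than in tumour-like cells (52.3 CPM), and at 2.52 CPM in neutrophil-like cells. Ube2c was highest in tumour-like cells, at 908 CPM, against 510 in pericyte- or smooth muscle-like, 236 in T-like, 135 in fibroblast-like and 59.4 CPM in monocyte/macrophage-like cells. Anln, which organises the cleavage furrow, was at 134 CPM in tumour-like and 10.7 CPM in T-like cells. T-like cells thus exceeded tumour-like cells in Mki67 and Mcm2 and were below them in Ube2c and Anln. Hmgb2 and Pcna were high in neutrophil-like cells too, at 882 and 177 CPM. PCNA protein is known from the cytosol of neutrophils. Exo1 gave no UMI in neutrophil-like cells of either library.

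**Figure D4:**
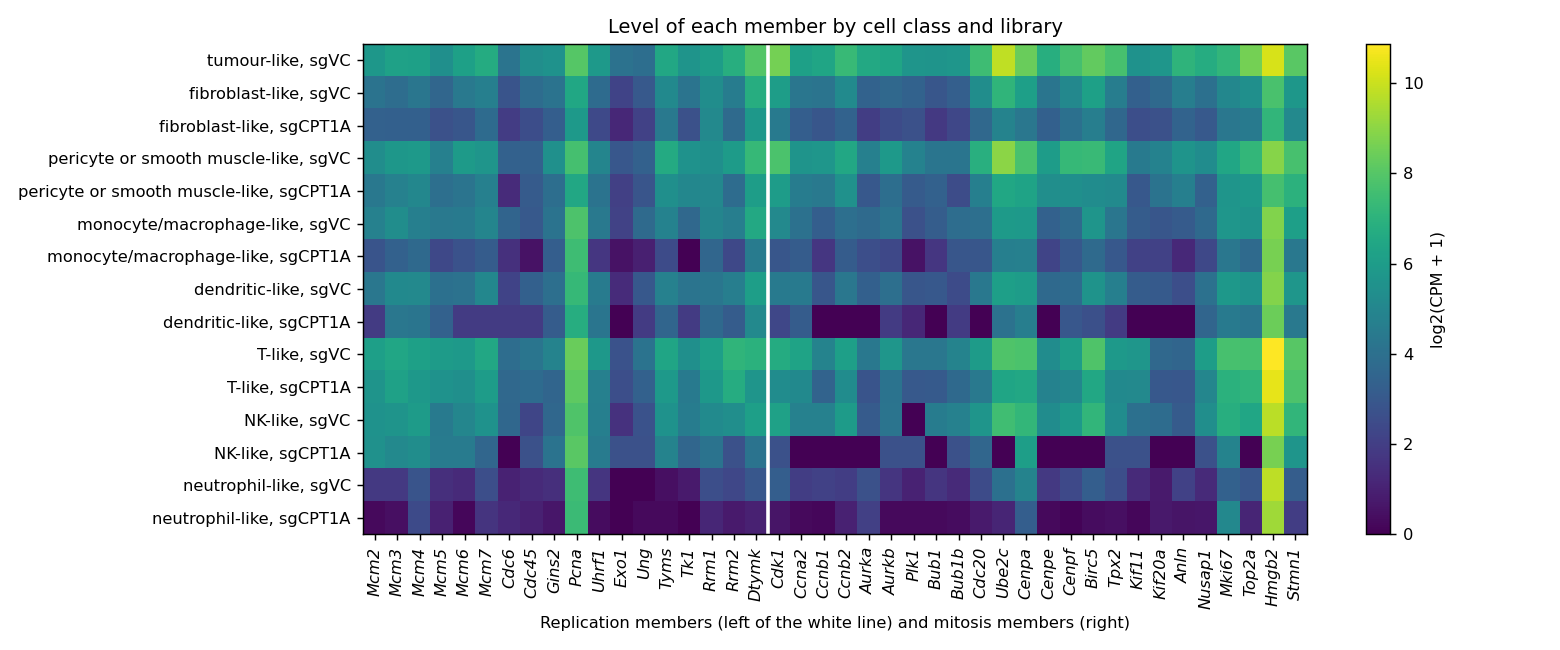
Level of each member, log2(CPM + 1), in each cell class and library; the white line separates replication members (left) from mitosis members (right). Tumour-like and T-like cells of sgVC are bright across the plot, and neutrophil-like cells are darkest for most members; their brighter columns include Pcna, Hmgb2, Cenpa (27.7 CPM in sgVC) and, in sgCPT1A, Mki67 (32.3 CPM).

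Levels were then compared between the libraries within each class with at least 50 cells per library. A gene was measured where it had at least 20 UMIs over both. In fibroblast-like cells all 42 members were measured and 41 were lower in sgCPT1A by at least 1.5-fold, where 13.5% of 13236 genes were lower and 16.0% higher by as much. The median log2 ratio of sgCPT1A over sgVC was -0.98 for the 18 replication members and -1.21 for 22 mitosis members, beside -0.02 for all genes. Ube2c was at 135 CPM in sgVC against 28.2 CPM in sgCPT1A, 4.81-fold lower (log2 ratio -2.27, interval -2.45 to -2.08). Ccnb2 was at 35.4 and 9.61 CPM, and Cenpa at 68.4 and 18.97 CPM. All 22 mitosis members were lower past the fold, with log2 ratios from -2.27 to -0.78. Bub1b and Anln were at 8.82 and 4.04 CPM and at 24.3 and 10.1 CPM. Of the replication members Mcm6 had the largest ratio, at 20.1 and 6.54 CPM (3.08-fold lower), and Rrm1 the smallest, at 38.8 and 33.8 CPM (log2 ratio -0.20, interval -0.43 to 0.04). In cells without tumour marker UMIs the medians were -0.78 and -0.90, and with called doublets kept the mitosis median was -1.94.

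In pericyte- or smooth muscle-like cells 37 members were measured and 35 of these were lower by at least 1.5-fold (all genes: 18.6% lower and 22.9% higher). Members with few UMIs are missing from that count, so it describes those measured. Ube2c was at 510 CPM in sgVC against 87.4 CPM in sgCPT1A (log2 ratio -2.54, interval -2.86 to -2.24), Cdc20 at 115 and 24.98 CPM and Rrm2 at 61.04 and 13.3 CPM. These 3 were at least 4-fold lower in sgCPT1A. Tk1, at 46.1 and 31.2 CPM, and Rrm1, at 42.1 and 32.8 CPM, differed by less than 1.5-fold. Cdc6, Cdc45, Exo1, Ung and Bub1b had too few UMIs. The sgVC class of 51 cells had the most tumour marker RNA among the host classes compared.

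Monocyte/macrophage-like cells had all 42 members measured. In sgCPT1A 40 were lower by at least 1.5-fold, where 25.1% of 11104 genes were lower and 15% higher by as much, and the other 2 were Pcna and Hmgb2. Here replication members, with Tk1 at the floor given below, had the larger median, -2.20 on the log2 scale, beside -1.37 for mitosis members and -0.12 for all genes. Uhrf1, which carries DNA methylation through replication, was at 20.3 CPM in sgVC against 2.33 CPM in sgCPT1A (log2 ratio -3.12, interval -4.76 to -1.87). Mcm3 was at 38.6 and 9.32 CPM, Tyms at 26.9 and 4.66 CPM and Dtymk at 92.6 and 21.9 CPM. Tk1 gave 110 UMIs (11.7 CPM) in sgVC and none in sgCPT1A. Against a floor of 3 counts per library it was 8.35-fold lower, and the interval of its log2 ratio reached up to -2.74. Cdc45, Exo1 and Plk1 had 1 UMI each in sgCPT1A, and the interval of Cdc45 ran from -9.28 to -1.43 around a log2 ratio of -3.95.

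Mitosis members of monocyte/macrophage-like cells were lower too. Top2a was at 46.6 and 12.6 CPM, Mki67 at 50.9 and 19.1 CPM, Cdk1 at 33.6 and 6.52 CPM and Birc5 at 49.8 and 12.6 CPM. The sgCPT1A levels rested on few cells, as these genes were read in 2.68%, 5.69%, 1.67% and 1.00% of 299 cells. Pcna was at 226 and 179 CPM (log2 ratio -0.34, interval -0.50 to -0.18), and Hmgb2 at 442 and 402 CPM. Without Pcna the log2 ratio of the replication-positive shares was -3.92, beside -2.08 with it. With any single UMI counted it was -0.72. In cells without tumour marker UMIs the median log2 ratios were -1.94 for replication and -2.19 for mitosis members, so both lists stayed lower in sgCPT1A and their order turned. Leaving out the 14 sgCPT1A cells with such a UMI took the sum of mitosis members from 174 to 71.1 CPM. In sgVC, without 319 cells, it went from 485 to 362 CPM.

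T-like cells also had all 42 members measured, and the 2 lists parted. Of the replication members 5 of 18 were lower in sgCPT1A by at least 1.5-fold, and of the mitosis members 20 of 22, where 13.9% of 10133 genes were lower. None of the 42 was higher by as much, as 13.2% of genes were. The median log2 ratio was -0.45 for replication and -1.19 for mitosis members, beside -0.04 for all genes. Cdc20 was at 62.3 CPM in sgVC against 19.9 CPM in sgCPT1A (log2 ratio -1.65, interval -2.07 to -1.24). The Aurora kinases Aurka and Aurkb were at 19.4 and 6.02 CPM and at 50.7 and 16.9 CPM, and Cdk1 at 101 and 38.5 CPM. Each of these was lower in sgCPT1A by more than 2-fold. Birc5 was at 230.4 and 90.3 CPM and Mki67 at 207 and 122 CPM. Bub1 was at 19.1 and 7.52 CPM, Kif20a at 11.9 and 6.92 CPM and Tpx2 at 56.3 and 34.3 CPM. The mitosis members under the fold were Cenpe, at 37.6 and 27.4 CPM, and Top2a, at 203 and 138 CPM.

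Most replication members of T-like cells were under the fold. Mcm3 was at 85.6 and 73.1 CPM (log2 ratio -0.23, interval -0.48 to 0.03), Rrm2 at 137 and 105 CPM and Pcna at 338 and 291 CPM. Mcm4 was at 70.4 and 55.1 CPM, Mcm5 at 60.8 and 45.4 CPM and Mcm7 at 90.9 and 63.8 CPM. The 5 past the fold were Gins2, at 27.7 and 10.8 CPM, Dtymk, at 124 and 50.3 CPM, Uhrf1, at 54.9 and 25.6 CPM, Tk1 and Ung. In T-like cells without tumour marker UMIs the medians were -0.64 for replication and -0.42 for mitosis members, so the order of the lists turned. With each cell weighted equally the mitosis median was -1.54.

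**Figure D5:**
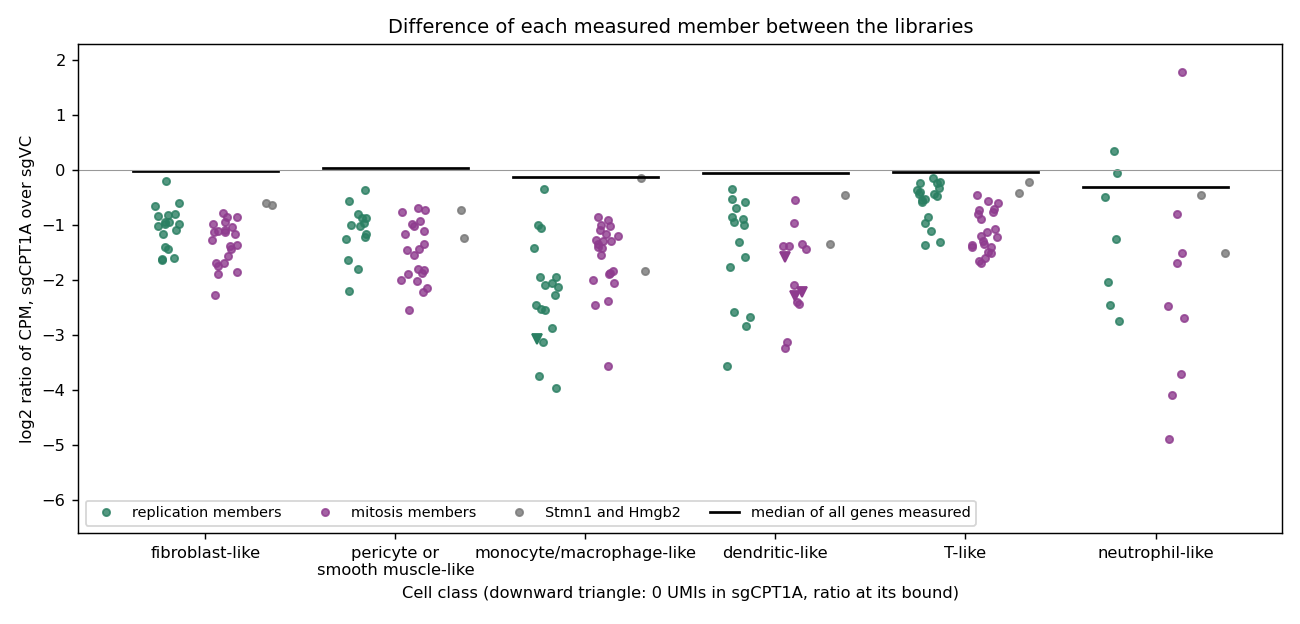
log2 ratio of CPM, sgCPT1A over sgVC, of each measured member by cell class, with replication members, mitosis members, and Stmn1 and Hmgb2 drawn apart; black lines mark the median of all genes measured and triangles members with 0 UMIs in sgCPT1A, at their bound. All measured members of the classes other than neutrophil-like cells lie below the black line. Hmgb2 of monocyte/macrophage-like cells is only just below it, at -0.14 beside -0.12. Mki67 in neutrophil-like cells stands at 1.79.

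Dendritic-like cells had 31 members measured, 26 of them lower by at least 1.5-fold (all genes: 19.4% lower and 15.8% higher), again a count of those measured only. Birc5 was at 46.7 CPM in sgVC against 5.37 CPM in sgCPT1A on 4 UMIs in sgCPT1A (log2 ratio -3.12, interval -5.03 to -1.72). Of those measured, Ccnb2, Cdc20 and Cenpe gave no UMI in sgCPT1A. Against a floor of 3 counts Cdc20 was 4.86-fold lower, and the interval of its log2 ratio reached up to -1.91. Mcm7 was at 31.6 and 2.69 CPM and Pcna at 157 and 109 CPM. The measured members under the fold were Pcna, Uhrf1, Rrm1, Nusap1 and Hmgb2.

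In neutrophil-like cells 18 members were measured. Of these 13 were lower and 1 was higher in sgCPT1A by at least 1.5-fold, where 36.0% of 9223 genes were lower and 17.3% higher. Birc5 was at 8.63 and 0.291 CPM and Ube2c at 15.1 and 1.17 CPM. Pcna was at 177 and 170.2 CPM (log2 ratio -0.06, interval -0.20 to 0.09) and Hmgb2 at 882 and 644 CPM. The tumour markers, at 99.2 and 17.7 CPM, were lower in sgCPT1A as well, and their part in these ratios was not tested.

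Mki67 was the member that was higher in sgCPT1A neutrophil-like cells. It was at 9.35 CPM in sgVC against 32.3 CPM in sgCPT1A, from 26 and 443 UMIs (log2 ratio 1.79, interval 1.22 to 2.42). The gene lies at chr7:135689784-135716361 of GRCm38, minus strand. In sgCPT1A its UMIs came from 199 of 5129 cells, with up to 15 in a single cell. Of these cells 17 (8.54%) held a UMI of another mitosis member, compared with 99.7% of Mki67-bearing tumour-like and 83.3% of T-like cells of sgVC, which were deeper. Top2a was at 6.47 and 1.17 CPM in neutrophil-like cells. Hmmr, a spindle gene outside the 42 that is named after its values were seen, was at 3.24 and 11.6 CPM.

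The neutrophil-like class had a different makeup in the libraries. Clusters 2 and 6 held 704 and 946 of its sgVC cells, and clusters 4, 5 and 9 held 1583, 1456 and 661 of its sgCPT1A cells. Within sgCPT1A, Mki67 was at 57.02 CPM in cluster 4 and 49.2 CPM in cluster 9, which share the cytokine genes Il1a and Il36g and the chemokine gene Ccl3 among their leading genes. It was at 18.4 CPM in cluster 5. In clusters 2 and 6 it was at 10.02 and 5.81 CPM in sgCPT1A, close to the 8.73 and 6.51 CPM of the same clusters in sgVC. The sgVC levels in clusters 4, 5 and 9 rested on 3, 3 and 1 UMIs.

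The 72 other cell cycle genes gave the following counts by the same rule. In fibroblast-like cells 40 of 72 were lower in sgCPT1A and 3 higher (all genes: 13.5% and 16.0%). In monocyte/macrophage-like cells 51 were lower and 2 higher of 68 measured (all genes: 25.1% and 15%), and in T-like cells 29 and 0 of 70 (all genes: 13.9% and 13.2%). Of those measured in the smaller or shallower classes, 37 were lower and 4 higher of 56 in pericyte- or smooth muscle-like, 24 and 2 of 44 in dendritic-like and 19 and 4 of 41 in neutrophil-like cells, beside the shares of all genes given above. The CDK subunit gene Cks1b was at 198 and 80.1 CPM in T-like, 129 and 50.7 CPM in fibroblast-like and 72.3 and 19.6 CPM in monocyte/macrophage-like cells, and Gmnn at 109 and 55.4 CPM, 19.5 and 6.38 CPM and 52.5 and 16.3 CPM. Slbp, which binds histone mRNA, differed by less than the fold, at 206 and 189.6 CPM in T-like and 82.9 and 72.2 CPM in monocyte/macrophage-like cells.

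Genes of G1 and of arrest had no common direction. Cdkn1c, a CDK inhibitor, was higher in sgCPT1A fibroblast-like cells, at 53.7 and 186 CPM (log2 ratio 1.79, interval 1.62 to 1.96), as was Cdkn1a, which encodes p21, at 94.7 and 146 CPM. In monocyte/macrophage-like cells Cdkn1a was at 561 and 662 CPM and Mdm2, which restrains p53, at 127 and 213 CPM. Cyclin D2 (Ccnd2) and cyclin D3 (Ccnd3) of T-like cells were at 287 and 301 CPM and at 138 and 137 CPM. Ccnd1 was lower in sgCPT1A in fibroblast-like (89.9 and 13.97 CPM), monocyte/macrophage-like (228 and 22.4 CPM) and T-like cells (22.7 and 2.41 CPM), and tumour-like cells of sgVC held 1533 CPM. The part of tumour RNA in the Ccnd1 ratios was not tested.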

How the data were processed

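The values are UMI counts that the authors deposited as matrices, with Cell Ranger 7.1.0 per the file headers. The libraries were 10x Genomics single-cell libraries, per the labels' protocols. The submitters' processing notes name GRCm38, Cell Ranger and Seurat 4.1.0, and the sources used here do not give the annotation release or how cells were called. Of 3 samples listed, 2 had files, and whether reads of the other were pooled into them is not stated. Members, gene lists and markers were chosen with earlier results of these data known.

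Barcodes were kept from 200 genes up, with mitochondrial UMIs up to 20% (9610 in sgVC and 6743 in sgCPT1A). Scrublet called 291 doublets in sgVC, which were left out. It called 1 in sgCPT1A, too few to have worked, so some may be left in that library. A single clustering by Leiden covered both libraries, at resolution 1 on 15 neighbours in 30 principal components of 2000 variable genes per library (scanpy 1.11.5, leidenalg 0.10.2, Python 3.11.15). A name needed 3 markers, each at 2 times its median over clusters and present in 10% of the cells, and 27 sgVC and 28 sgCPT1A cells stayed unnamed. UMIs were summed by class and library. Ratios were taken with at least 50 cells in each library and 20 UMIs over both. Intervals are Clopper-Pearson for shares, Poisson for levels and conditional binomial for ratios. Other cell cycle genes were named by their level, up to 3 per role, apart from those said to be named after their values were seen. Ratio intervals and thinning were run on simulated Poisson counts, the model that these intervals assume. Extra spread between cells was not simulated, so this checks the calculation only. Promoter sequences are RefSeq's.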

Additional observations from a re-analysis of the deposited data

Results flagged for a closer look

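Mki67 ran in opposite directions between classes. Its log2 ratio of sgCPT1A over sgVC was 1.79 in neutrophil-like cells, and it was -0.76 in T-like, -0.78 in fibroblast-like, -0.75 in pericyte- or smooth muscle-like, -1.41 in monocyte/macrophage-like and -1.34 in dendritic-like cells. With 1 library per group the difference between the classes was not tested.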

How the results depend on the processing

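The replication-positive share of tumour-like cells, 29.1% as reported, was 14.6% and 48.8% when thinned to 500 and 2000 UMIs, 94.1% without thinning, 54.6% and 16.2% with limits of 1 and 3 UMIs and 24.4% without Pcna. The mitosis-positive share, 41.4%, was 31.4%, 48.9%, 80.7%, 53.4% and 34.1% under the same settings and 48.8% with Stmn1 and Hmgb2 kept. These shares follow from the depth and limit by construction. The mitosis share of list UMIs in tumour-like cells, 74.4%, was 74.2% with doublets kept, 79.7% with Stmn1 and Hmgb2, 77.98% without Pcna and 73.7% without Mki67. The log2 ratio of replication-positive shares turned in T-like cells without thinning (0.18 beside -0.82), where sgCPT1A cells were deeper. Ratios whose intervals held 0 also changed sign: the replication ratio of fibroblast-like (0.03) and dendritic-like cells (0.05) without thinning and of pericyte- or smooth muscle-like cells at 500 UMIs (0.48), and the mitosis ratio of dendritic-like cells at resolution 0.5 (0.14). The replication ratio was -3.17 beside -1.31 in fibroblast-like cells at 500 UMIs, and in monocyte/macrophage-like cells -0.22 without thinning, -0.72 with a limit of 1 UMI and -3.92 without Pcna. The median log2 ratio of mitosis members was -1.94 in fibroblast-like cells with doublets kept, and in T-like cells -0.42 without tumour marker UMIs and -1.54 with equal weight per cell. The cause was not tested. Of 294 values under 20 alternatives, 249 stayed within the main value's interval or margin, 44 moved and 1, that of T-like cells, reversed past its interval. The margin of a median ratio was the median of the bounds of its single members, which is not an interval of the median. Such margins, and the ranges of share ratios, are wide, so the 249 are a weak check of stability. Leaving out Pcna, Mki67 or cells over 1000 CPM of tumour markers was chosen after seeing the data. No paired analysis was possible because each group had 1 library. The number of cells limits sgCPT1A dendritic-like cells (65) and pericyte- or smooth muscle-like cells of both libraries (51 and 73).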
